A study of Mus musculus with 6 samples.

Results

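Transcripts of 8 nuclear receptors and of the retinaldehyde reductase gene Dhrs3 were examined in regulatory T (Treg) cells from the liver and the spleen of newborn mice. The genes were chosen by symbol: the retinoic acid receptors Rara and Rarg, the retinoid X receptors Rxra and Rxrb, the vitamin D receptor Vdr, the glucocorticoid receptor Nr3c1, the liver X receptor Nr1h2, the thyroid hormone receptor Thra, and Dhrs3. All 9 were found among the 23366 gene symbols of the deposited table, and all 9 passed the filter on low counts that left 11716 genes to test. CD4+GFP+ cells had been sorted by flow cytometry from Foxp3GFP knock-in mice at 12 days of age, and RNA was sequenced from 3 liver and 3 spleen libraries. The knock-in makes Foxp3, the lineage factor of Treg cells, visible as green fluorescence; both groups carry it, and as labelled they differ in tissue alone. The labels name no treatment, no sex and no pairing, and they do not say whether a library is 1 animal or a pool. P-values therefore measure the spread between these libraries, which may be technical in part.

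Nuclear receptors are transcription factors that are switched by small fat-soluble molecules. Retinoic acid receptors, the vitamin D receptor, liver X receptors and thyroid hormone receptors bind DNA as pairs with a retinoid X receptor, whereas the glucocorticoid receptor is held by chaperones in the cytoplasm until hormone binds and then acts mainly with a second copy of itself. In T cells retinoic acid is known for inducing gut-homing receptors and for favouring Foxp3 expression, vitamin D and glucocorticoids for restraining inflammatory cytokines, and liver X receptors for cholesterol export. Dhrs3 is not a receptor: it turns retinaldehyde back into retinol, which limits the making of retinoic acid, and it is itself induced by retinoic acid.

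Because Rxra was the 1 gene of this group that passed the test between tissues, and the retinoid receptors share a partner, the bases upstream of their transcript starts were searched for the half-sites that these receptors bind. Sequences were RefSeq promoter windows of build GRCm38.p6, cut to the 250 bases before each annotated start, and 15 windows of 7 of the 9 genes were used. The half-site AGGTCA (held by 14% of all 32851 windows of this length), its variant GGGTCA (held by 11.6%) and the further variant AGTTCA (held by 11.8%) were searched on both strands, and no 2 matches overlapped in the windows shown. Of the 15 windows 4 held at least 1 of them, where 32.9% of all windows did. Direct repeats, which retinoid receptor pairs bind, were searched on both strands as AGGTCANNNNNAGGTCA (held by 0.00913% of all windows), as AGGTCANNAGGTCA (also 0.00913%), as AGTTCANNNNNAGTTCA (0.0213%) and as GGGTCANNNNNGGGTCA (0.00304%). Of the 15 windows 0 held any of the 4. Both Rxra windows are shown because the gene has 2 annotated starts, with 1 Rarg and 1 Rara window that hold half-sites for comparison. Capitals mark the half-sites, which read as the reverse complement where the match is on the opposite strand. None of the 4 windows overlaps an annotated exon of GENCODE M21; the Rxra and Rara windows lie inside their gene, between exons, and the Rarg window lies before it.
Rxra, chr2:27676951-27677200, plus strand: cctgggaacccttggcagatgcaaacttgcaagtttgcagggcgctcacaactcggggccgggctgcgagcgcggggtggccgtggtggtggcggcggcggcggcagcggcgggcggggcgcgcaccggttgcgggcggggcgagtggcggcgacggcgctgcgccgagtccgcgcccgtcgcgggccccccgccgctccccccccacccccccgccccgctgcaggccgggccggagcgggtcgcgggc
Rxra, chr2:27709042-27709291, plus strand: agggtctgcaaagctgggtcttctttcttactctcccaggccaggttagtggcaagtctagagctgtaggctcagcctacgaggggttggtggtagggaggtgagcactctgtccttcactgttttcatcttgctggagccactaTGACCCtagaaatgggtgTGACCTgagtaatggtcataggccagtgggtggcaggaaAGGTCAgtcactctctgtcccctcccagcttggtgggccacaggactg
Rarg, chr15:102257523-102257772, minus strand: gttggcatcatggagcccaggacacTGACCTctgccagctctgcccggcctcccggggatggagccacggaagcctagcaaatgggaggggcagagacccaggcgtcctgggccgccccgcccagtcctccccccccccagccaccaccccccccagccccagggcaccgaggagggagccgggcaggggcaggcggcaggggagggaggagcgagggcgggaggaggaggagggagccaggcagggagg
Rara, chr11:98939461-98939710, plus strand: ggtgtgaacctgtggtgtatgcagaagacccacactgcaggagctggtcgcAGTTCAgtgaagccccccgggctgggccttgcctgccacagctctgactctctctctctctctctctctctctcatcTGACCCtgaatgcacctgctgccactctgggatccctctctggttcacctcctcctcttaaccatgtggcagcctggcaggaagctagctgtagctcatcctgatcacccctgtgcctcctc
The first Rxra window is 81.2% G and C and holds 0 half-sites, while the second is 55.2% G and C and holds 3. A match describes the letters only, and the count table does not tell which start was used.

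Reads counted in genes numbered 8437055 to 10951720 per liver library, 11408960 and 11358446 for spleen libraries 2 and 3, and 1199410 for spleen library 1, which was the shallowest. The sort label was checked first. Levels are given as CPM, read counts scaled by library total. Foxp3 averaged 1266 ± 58.4 CPM in liver against 1160 ± 57.6 in spleen (SD, n = 3), and Ikzf2, which encodes the Treg factor Helios, 822 ± 104 against 642 ± 22.9. All 7 Treg markers were detected in all 6 libraries, but not all were level between tissues. By edgeR's test 2 were higher in liver, Ikzf2 and Ctla4 (733 ± 34.0 against 400 ± 86.2 CPM). Il2ra was higher in spleen, at 408 ± 19.1 CPM in liver against 620 ± 32.5, and the other 4 did not pass. Transcripts used as markers of other cells were present at different levels in the 2 tissues, and bulk counts do not tell which cells held them. The summed level of 8 hepatocyte markers, led by Alb and Ahsg, was 4.03 to 16.3 CPM in liver and 0 to 0.684 CPM in spleen. Only Alb and Ahsg had enough counts to be tested. Both had 0 counts in every spleen library and passed the filter through liver alone, so their calls as higher in liver add no support. The summed level of 8 NK and CD8 T cell markers, led by Nkg7 and Cd8b1, was 88.1 to 112 CPM against 41.1 to 50.8 CPM. Of 7 tested markers 4 were higher in liver, Nkg7 among them, and 1 was higher in spleen, while Cd8b1 did not pass. Markers of macrophages (led by Lyz2 and Cd68) were higher in spleen in 8 of 9 cases, of granulocytes (Ngp and Ltf) in 9 of 11 with 1 higher in liver, of erythroid cells (Tfrc and Beta-s) in 6 of 7, and of B cells (Cd79a and Cd79b) in 4 of 9. Of 4 tested dendritic cell markers (Itgax and Siglech), 4 stellate cell and fibroblast markers (Reln and Col1a1) and 1 platelet marker (Itga2b), 0 passed edgeR's test.

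These Treg cells held transcripts of most of the receptors at very unequal levels. Levels of different genes were compared as CPM per kilobase of the longest annotated transcript. In liver the order was Nr1h2 at 81.4 ± 4.02 CPM per kilobase, Rara at 59.4 ± 2.92, Rarg at 49.2 ± 5.95, Rxrb at 44.3 ± 3.17, Nr3c1 at 18.5 ± 2.07, Rxra at 15.3 ± 1.33, Thra at 15.2 ± 2.37, Dhrs3 at 5.49 ± 1.42 and Vdr at 0.587 ± 0.161 (SD, n = 3). Neighbours whose liver libraries overlapped were Rarg with Rxrb, Nr3c1 with Rxra, and Rxra with Thra. The spleen order was the same but for Thra, at 12.98 ± 1.21 CPM per kilobase, and Rxra, at 11.6 ± 1.42, which changed places. In spleen the overlapping neighbours were Rara with Rarg, Rarg with Rxrb, Nr3c1 with Thra, and Thra with Rxra. The order depends on the transcript length used, since isoforms cannot be told apart in gene counts.

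**Figure D1:**
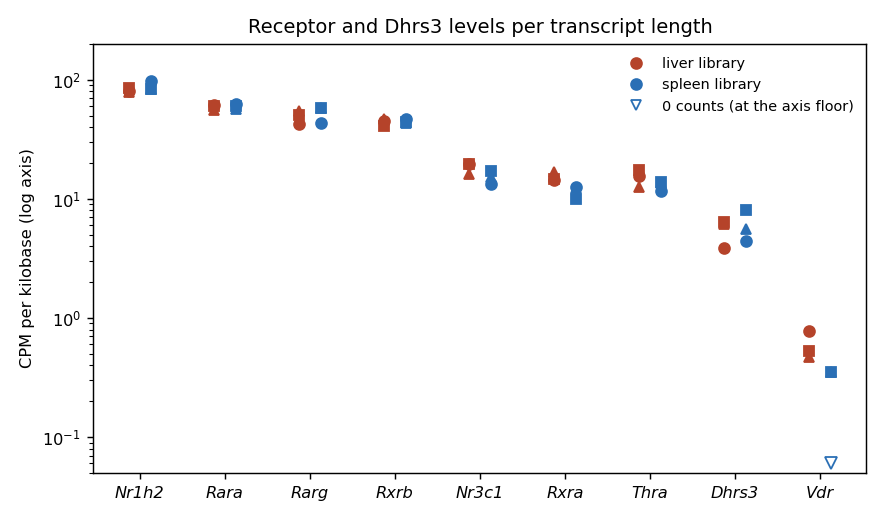
Level of each gene per transcript length, in CPM per kilobase on a log axis, in each liver (red) and spleen (blue) library; marker shapes are libraries 1, 2 and 3 of a tissue. Nr1h2 is highest in both tissues and Vdr lowest, with 0 counts of Vdr in spleen library 1 drawn as an open triangle at the floor of the axis.

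Most of the genes did not pass the test between tissues. By edgeR's quasi-likelihood test 1 of the 9 genes, Rxra, was higher in liver and 0 were higher in spleen, where 16.2% of all tested genes were called, 9.28% higher in liver and 6.9% higher in spleen. For 2 of the 9, Rxra and Vdr, every liver library was above every spleen library, where 17.7% of tested genes lay that way and 32.9% lacked overlap in either direction. These shares are near those of all genes and say nothing particular to the group. For 6 genes, Rara, Rarg, Rxrb, Nr3c1, Nr1h2 and Thra, the 95% interval of the difference stayed within a 1.5-fold change up or down. In sorted cells measured in bulk, fewer cells with a transcript and less transcript in each cell cannot be told apart.

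**Figure D2:**
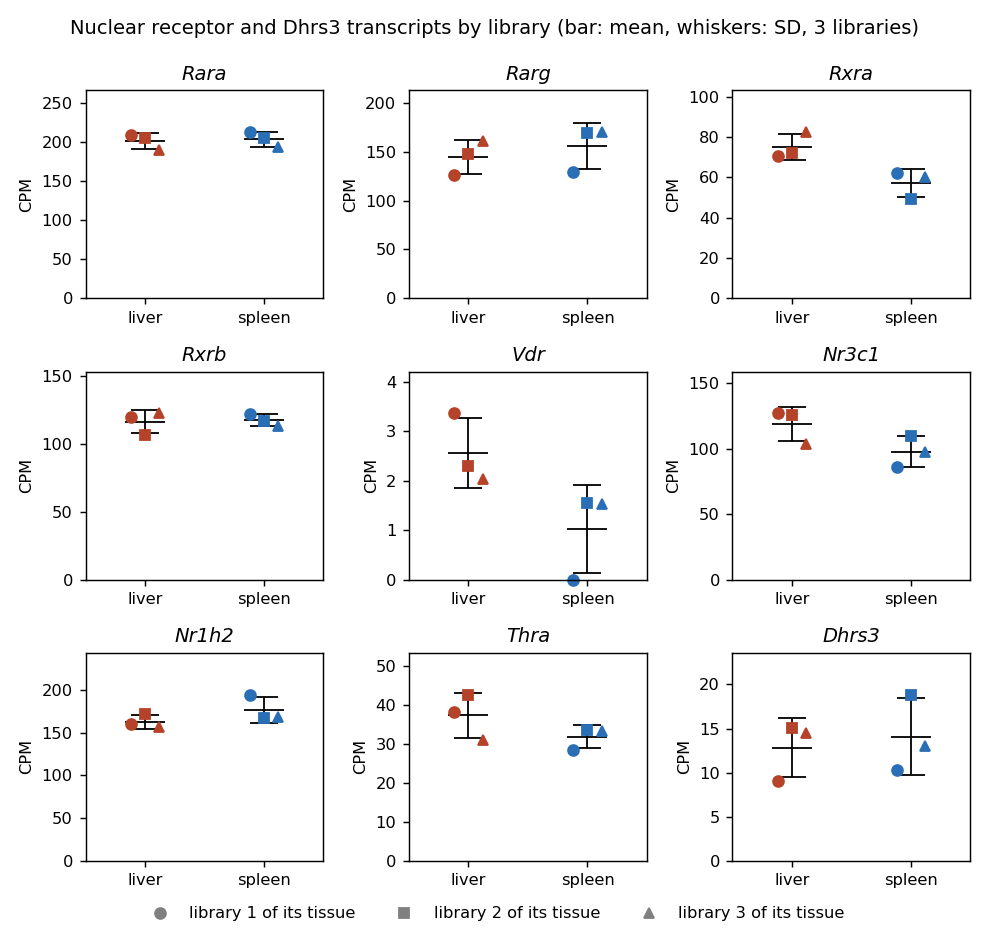
CPM of each of the 9 genes in the 3 liver (red) and 3 spleen (blue) libraries, with the mean as a bar and the SD as whiskers; each panel has its own axis from 0. Liver libraries lie above all spleen libraries for Rxra and Vdr, and the tissues overlap for the other genes.

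Rara, the retinoic acid receptor that T cells are best known to use, was the steadiest of the group. Its liver libraries read 208, 205 and 190 CPM and its spleen libraries 213, 204 and 193 CPM. The 6 values lay within 1.12-fold of each other, and the tissues overlapped. The fitted log2 fold change, liver minus spleen, was -0.01 ± 0.09 (SE; 95% interval -0.20 to 0.18; edgeR adjusted p = 0.960), and as a ratio the interval ran from 0.869 to 1.13.

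Rarg, the second retinoic acid receptor, is often described in skin and skeletal tissue, and it was nearly as abundant here. Its values were 126, 148 and 161 CPM in liver and 129, 170 and 171 CPM in spleen, with a log2 fold change of -0.14 ± 0.11 (SE; 95% interval -0.38 to 0.10; edgeR adjusted p = 0.466). Liver library 1 and spleen library 1 were the lowest of their tissues, and the spread within a tissue was wider than the gap between the means. Within a library the ratio of Rarg to Rara counts does not depend on scaling between libraries. That ratio was 0.606, 0.724 and 0.848 in liver and 0.607, 0.831 and 0.883 in spleen, so the tissues overlapped. The third gene of this family, Rarb, a known retinoic acid target, averaged 0.935 ± 0.0994 CPM in liver against 0.627 ± 0.569 in spleen, with 0 counts in spleen library 1 (edgeR adjusted p = 0.932).

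Rxra, a shared partner of the retinoic acid, vitamin D, thyroid hormone and liver X receptors, was higher in liver. Its liver libraries read 70.5, 72.0 and 82.4 CPM and its spleen libraries 62.0, 49.1 and 60.2 CPM. The lowest liver value lay above the highest spleen value, in spleen library 1, by less than the range within either tissue. The log2 fold change was 0.42 ± 0.13 (SE; 95% interval 0.15 to 0.69; edgeR adjusted p = 0.0340), a 1.34-fold difference. This call ended in 5 of the 6 fits that left out a library, in each case but that without the shallow spleen library 1 (0.46, edgeR adjusted p = 0.0188). Without spleen library 2 the log2 fold change was 0.30 (edgeR adjusted p = 0.261), and across the 6 such fits it ranged from 0.30 to 0.49. With upper-quartile scaling the adjusted p was 0.0568, and with all libraries thinned to the depth of spleen library 1 it was 0.377.

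Rxrb, the sister gene of Rxra, did not pass the test. Rxrb was at 120, 107 and 123 CPM in liver and 122, 117 and 113 CPM in spleen (log2 fold change -0.00 ± 0.10 SE; 95% interval -0.21 to 0.20; edgeR adjusted p = 0.986). The count ratio of Rxrb to Rxra within a library was 1.70, 1.48 and 1.49 in liver and 1.97, 2.37 and 1.88 in spleen. Every liver library thus had a lower ratio than every spleen library, which is a description of 6 libraries with no test. The third retinoid X receptor gene, Rxrg, had 1 count in all, in spleen library 3, and was not tested. Hepatocytes and macrophages also express Rxra: the summed hepatocyte markers were 11.9, 4.03 and 16.3 CPM in liver libraries 1, 2 and 3, and macrophage markers summed to 73.4 to 83.3 CPM in liver against 120 to 191 CPM in spleen. Between 0 and 3 of 8 hepatocyte markers were at 0 counts in a liver library and 6 to 8 in a spleen library, and their part in the Rxra difference was not tested.

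The 3 genes whose CPM followed Rxra most closely over the 6 libraries, among tested genes of at least 10 CPM, were Sdhd, a subunit of succinate dehydrogenase, Syngr2 and the actin-capping subunit gene Capza2. Pearson's r of log2 CPM with a pseudocount of 0.5 was 0.994, 0.989 and 0.987. The 6 points share their tissue and their library depth, and the 3 genes were picked for the highest r of all genes compared. High values over so few points can come from that choice alone, so they are descriptive.

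**Figure D3:**
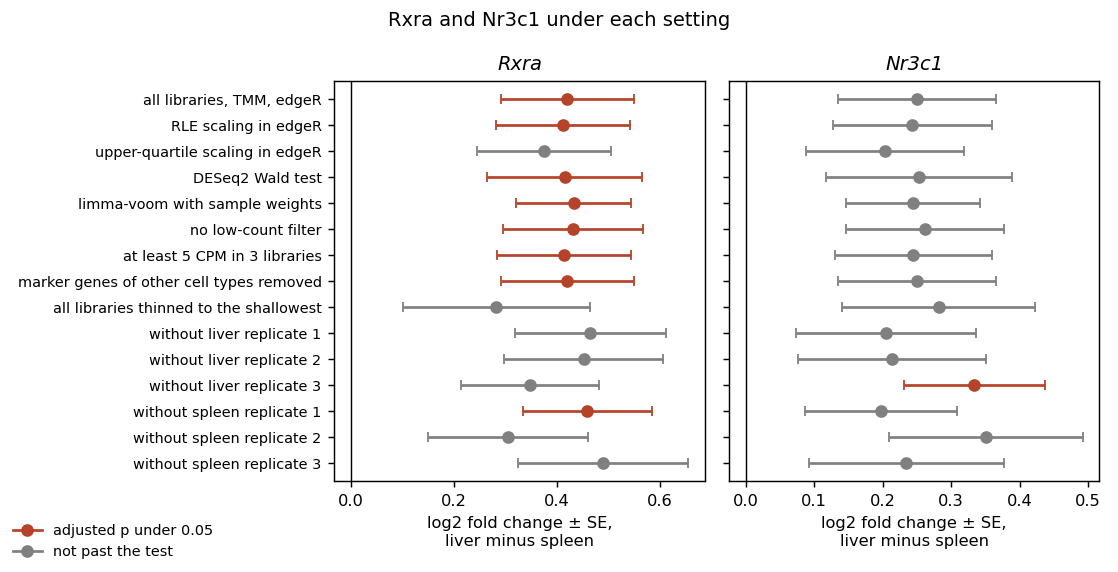
Log2 fold change of Rxra (left) and Nr3c1 (right), liver minus spleen, with its SE under each setting; red points have an adjusted p under 0.05. All values lie above 0 for both genes, and 7 of the 14 alternatives lose the Rxra call.

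Vdr, the vitamin D receptor, was barely detected. Its counts were 28, 25 and 22 in liver and 0, 18 and 18 in spleen, or 3.37, 2.29 and 2.04 against 0, 1.54 and 1.54 CPM. Liver lay above spleen in every library, but 0 counts in spleen library 1 allow up to 2.58 CPM, which is within the liver range. The log2 fold change was 0.88 ± 0.56 (SE; 95% interval -0.29 to 2.05; edgeR adjusted p = 0.330), so neither equality nor a 4-fold difference lies outside the interval. Of 12 genes of vitamin D metabolism and response 3 could be tested. Of these 1 was called, higher in spleen, where 6.9% of all tested genes were called that way. The called gene was Tnfsf11, which encodes RANKL and is induced by vitamin D in bone. It averaged 12.9 ± 1.45 CPM in liver against 31.7 ± 4.64 in spleen (-1.34 ± 0.18 on the log2 scale, edgeR adjusted p = 5.17e-05). The calcium channel gene Trpv6 was at 1.93 ± 1.34 and 3.37 ± 1.03 CPM and did not pass (edgeR adjusted p = 0.300). Cyp24a1, the enzyme gene that is most strongly induced by vitamin D in other tissues, had 0 counts in all 6 libraries.

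Nr3c1, the glucocorticoid receptor gene, was somewhat higher in liver on average without passing the test. Its values were 127, 126 and 104 CPM in liver and 86.1, 110 and 97.5 CPM in spleen. Liver libraries 1 and 2 were above all spleen libraries, and liver library 3 fell among them. The log2 fold change was 0.25 ± 0.11 (SE; 95% interval 0.01 to 0.49; edgeR adjusted p = 0.162). It was called without liver library 3 (0.33, edgeR adjusted p = 0.0444), and its adjusted p was between 0.0743 and 0.377 under the other 13 alternatives.

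Genes that glucocorticoids are known to induce or repress went both ways, with more of them higher in liver. Of 17 tested, 5 rose in liver relative to spleen, 3 fell and 9 did not pass, where 9.28% and 6.9% of all tested genes did so. The median log2 fold change was 0.45, against -0.01 for all tested genes. Tsc22d3 encodes GILZ, a mediator of glucocorticoid effects in T cells, and it was at 267, 249 and 289 CPM in liver and 175, 152 and 197 CPM in spleen. All of its liver libraries lay above all of its spleen libraries (0.62 ± 0.11, edgeR adjusted p = 0.000511). Fkbp5, a chaperone partner that lowers the hormone affinity of the receptor and is induced by it, was at 118, 114 and 139 against 75.7, 87.1 and 92.5 CPM (0.51 ± 0.11, edgeR adjusted p = 0.00364). The phosphatase gene Dusp1, also an immediate early gene, was at 563 ± 129 against 383 ± 8.62 CPM (0.55 ± 0.13), and the chemokine receptor gene Cxcr4 at 83.6 ± 9.94 against 49.2 ± 9.75 CPM (0.79 ± 0.15). The calls of Tsc22d3, Fkbp5, Dusp1 and Cxcr4 held in all 14 alternatives.

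Further genes of that list, Mt1, Ddit4, Bcl2l11 and Per1, were named after their values were seen. The metallothionein gene Mt1, which metals induce as well, was higher in liver, at 12.6 ± 3.02 against 3.42 ± 2.80 CPM. Its spleen counts were 1, 35 and 75, with the 1 in the shallow spleen library 1. Hepatocyte markers were also higher in liver, and the part of hepatocytes in the Mt1 difference was not tested. Ddit4, a repressor of mTORC1, was lower in liver (160 ± 26.6 against 237 ± 43.4 CPM). So was Bcl2l11, which encodes the death factor Bim (124 ± 6.73 against 154 ± 4.01 CPM). The call of Ddit4 ended without liver library 1 (-0.42) or spleen library 3 (-0.44), and that of Bcl2l11 without liver library 1 (-0.35), liver library 2 (-0.33), spleen library 2 (-0.30) or spleen library 3 (-0.33). Anxa1, an anti-inflammatory annexin that granulocytes and macrophages hold in quantity, averaged 14.8 ± 2.24 CPM in liver and was higher in spleen, with 27.2 ± 3.81 (-0.85 ± 0.20, edgeR adjusted p = 0.00553). The Anxa1 call ended in 1 of the 14 alternatives, with libraries thinned to equal depth (adjusted p = 0.0966). Granulocyte markers summed to 295 to 333 CPM in liver and 504 to 849 CPM in spleen, with 0 of 11 at 0 counts in any library; their part in the Anxa1 difference was not tested. Per1, a clock gene with a well known glucocorticoid response element, was at 122 ± 12.3 and 114 ± 8.36 CPM (0.07 ± 0.10, edgeR adjusted p = 0.709).

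**Figure D4:**
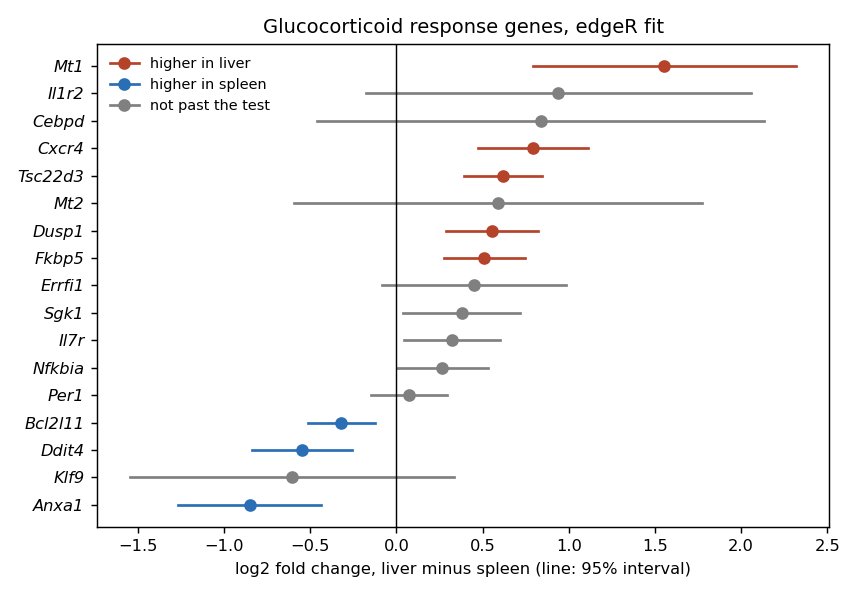
Log2 fold change, liver minus spleen, with its 95% interval for the 17 tested glucocorticoid response genes; red is higher in liver, blue higher in spleen and grey not past the test. The 5 red genes include Tsc22d3 at 0.62 and Fkbp5 at 0.51, and the 3 blue genes are Bcl2l11, Ddit4 and Anxa1.

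Chaperones that hold the glucocorticoid receptor ready did not pass the test. The heat shock protein genes Hspa8 (1529 ± 195 and 1580 ± 74.0 CPM) and Hsp90ab1 (1410 ± 87.2 and 1443 ± 54.7 CPM) differed by -0.05 ± 0.10 and -0.03 ± 0.09 on the log2 scale. Among 9 tested chaperone and steroid enzyme genes 1 was called, higher in liver. Of all tested genes 16.2% were called, 9.28% higher in liver. The called gene was Cyp11a1, which starts steroid synthesis from cholesterol. It was at 5.65, 3.39 and 3.70 CPM in liver and 0, 2.14 and 0.513 CPM in spleen (edgeR adjusted p = 0.0428). That call, of 1.80 ± 0.58 on the log2 scale, held without spleen library 2 (3.20) and ended without any other single library (1.29 to 1.96). Hsd11b1, which regenerates active glucocorticoid inside cells, was at 58.3 ± 9.83 and 59.5 ± 6.64 CPM (0.01 ± 0.14, edgeR adjusted p = 0.978).

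Nr1h2 encodes LXR beta, a sensor of oxidised cholesterol, and was the most abundant of the 9 genes per length. It was at 160, 172 and 157 CPM in liver and 195, 167 and 168 CPM in spleen, and liver library 2 lay among the spleen values. The log2 fold change was -0.10 ± 0.10 (SE; 95% interval -0.30 to 0.10; edgeR adjusted p = 0.546). Nr1h3, the LXR alpha gene, was low in both tissues, at 0.914 ± 0.238 and 1.83 ± 0.435 CPM (edgeR adjusted p = 0.262). Among 11 tested LXR target genes 1 rose in liver relative to spleen, 2 fell and 8 did not pass, with a median of -0.11; 9.28% of all tested genes rose and 6.9% fell. Abcg1, a cholesterol exporter, averaged 123 ± 12.0 CPM in liver against 91.3 ± 12.2 in spleen (0.39 ± 0.11, edgeR adjusted p = 0.0245), a call that ended without liver library 1 (0.35), liver library 2 (0.36) or spleen library 3 (0.42). The related exporter gene Abca1 was at 16.6 ± 5.02 and 20.4 ± 5.42 CPM and did not pass (-0.38 ± 0.24, edgeR adjusted p = 0.327). The desaturase gene Scd1 was lower in liver at 8.67 ± 3.27 against 28.7 ± 5.84 CPM, and the apolipoprotein gene Apoe at 27.0 ± 2.90 against 55.2 ± 5.59 CPM. Macrophages express Apoe strongly, and 8 of 9 tested macrophage markers were lower in liver as well; between 4 and 6 of their 13 markers were at 0 counts in a liver library and 2 to 3 in a spleen library. Their part in the Apoe difference was not tested.

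Thra, a thyroid hormone receptor gene, did not pass. It was at 38.2, 42.6 and 31.1 CPM in liver and 28.4, 33.7 and 33.4 CPM in spleen, and liver library 3 lay among the spleen libraries (log2 fold change 0.19 ± 0.16 SE; 95% interval -0.14 to 0.53; edgeR adjusted p = 0.471). Thrb, the other thyroid hormone receptor gene, averaged 1.60 ± 0.240 and 1.26 ± 0.410 CPM. The Thra gene shares 263 exonic bases with Nr1d1, which lies on the opposite strand and encodes the clock repressor REV-ERB alpha. Without a stated strand setting, reads from these bases cannot be assigned with certainty to either gene. Among 4 tested genes of thyroid hormone metabolism and response 0 passed edgeR's test; Dio3 was called, lower in liver, with upper-quartile scaling and with limma-voom. By unadjusted p 2 were under 0.05, Slc16a10 and the deiodinase gene Dio3, the second of which had 4, 7 and 12 counts in liver and 6, 26 and 26 in spleen (edgeR adjusted p = 0.0522). The transporter gene Slc16a10 was at 8.01 ± 0.717 and 11.4 ± 0.994 CPM, and Klf9, which both thyroid hormone and glucocorticoids induce, at 2.74 ± 0.757 and 4.72 ± 1.88 CPM.

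Dhrs3, the retinaldehyde reductase gene, varied more between libraries than between tissues. It was at 9.02, 15.0 and 14.4 CPM in liver and 10.3, 18.9 and 13.1 CPM in spleen, a 2.09-fold range over the 6 libraries. Library 1 was the lowest in each tissue, and the tissues overlapped. The log2 fold change was -0.22 ± 0.26 (SE; 95% interval -0.76 to 0.32; edgeR adjusted p = 0.631), and it changed sign without spleen library 2 (0.07) and with libraries thinned to equal depth (0.46), without a call in either. The 12 counts of Dhrs3 in spleen library 1 limit what this gene can show.

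Of 13 tested genes of retinoid metabolism and transport, 2 rose in liver relative to spleen, 1 fell and 10 did not pass, with a median of 0.24; of all tested genes 9.28% rose and 6.9% fell. Bco2, a mitochondrial enzyme gene that cleaves carotenoids, was at 15.0, 13.4 and 16.1 CPM in liver and 4.30, 3.51 and 5.81 CPM in spleen (1.68 ± 0.28, edgeR adjusted p = 0.000330). Dgat1, which makes triglycerides and can also esterify retinol, was at 61.0, 57.6 and 54.1 against 18.1, 28.4 and 35.6 CPM (0.95 ± 0.17, edgeR adjusted p = 0.000581). The liver libraries of both genes lay above all spleen libraries, and both calls held in all 14 alternatives. Hepatocytes also express Bco2 and Dgat1. Hepatocyte markers summed to 4.03 to 16.3 CPM in liver and 0 to 0.684 CPM in spleen, and the part of hepatocytes in these differences was not tested. Stra6, a retinol uptake receptor gene, read 1.08, 2.38 and 3.52 CPM in liver and was higher in spleen, with 4.30, 8.48 and 6.15 (-1.51 ± 0.43, edgeR adjusted p = 0.0218). That call ended without liver library 1 (-1.20), liver library 2 (-1.51) or spleen library 2 (-1.23). Enzymes that complete retinoic acid synthesis or break it down had too few counts to pass the filter when all libraries were used. Aldh1a1 had 0 counts in all 3 liver libraries and 1, 48 and 27 in spleen, and Aldh1a2 had 0 in liver and 1, 8 and 8 in spleen. Summed erythroid markers were also higher in spleen (250 to 355 CPM against 91.8 to 119 in liver), as were macrophage markers (120 to 191 against 73.4 to 83.3). The part of other cells in the Aldh1a1 and Aldh1a2 counts was not tested. Aldh1a3, Cyp26a1 and Cyp26b1 had at most 7 counts in any library. Aldh1a1, singled out after its values were seen, was called higher in spleen by DESeq2, by edgeR with no filter, and by edgeR without any 1 of the 3 liver libraries or without spleen library 1 (adjusted p between 7.05e-08 and 0.00256). Aldh1a2 was called higher in spleen by DESeq2 (adjusted p = 0.0385) and by edgeR with no filter (adjusted p = 0.0143). Ttr, a partner of the retinol carrier that hepatocytes make, was called higher in liver by the same DESeq2 and unfiltered edgeR fits (adjusted p = 0.0466 and 0.00625). Ttr had 0 counts in every spleen library. Aldh1a1, Aldh1a2 and Ttr thus entered these fits only through the tissue where they were high, and the calls add no support to the counts.

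Genes that retinoic acid is known to induce did not share a direction. Of 7 tested, 1 rose in liver relative to spleen, 3 fell and 3 did not pass, with a median of -0.10, where 9.28% of all tested genes rose and 6.9% fell. Stra6, described above, is on this list too. The gut-homing integrin gene Itgb7 was higher in liver, at 1643 ± 89.1 against 1226 ± 39.9 CPM (0.42 ± 0.09), whereas the gut-homing chemokine receptor gene Ccr9 was lower, at 9.15 ± 3.56 against 20.3 ± 0.491 CPM (-1.14 ± 0.26). Itga4, the partner integrin gene of Itgb7, was at 911 ± 147 and 784 ± 84.6 CPM and did not pass (edgeR adjusted p = 0.228). With limma-voom Itga4 was called higher in liver (limma-voom adjusted p = 0.0207). Tgm2, a transglutaminase gene that macrophages also express, read 0.601, 2.29 and 1.11 CPM in liver and was higher in spleen, with 18.1, 8.74 and 13.6 (-3.18 ± 0.44, edgeR adjusted p = 5.03e-05). Macrophage markers moved the same way as Tgm2, with the summed levels given above for Rxra, and their part was not tested.

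Elsewhere in the nuclear receptor family 5 genes passed the test. There were 41 other family members, of which 11 had 0 counts in all 6 libraries and 18 could be tested: 3 rose in liver relative to spleen, 2 fell and 13 did not pass, with a median of -0.05. Of all tested genes 16.2% were called, 9.28% upward and 6.9% downward in liver. Rora, a lineage factor of innate lymphoid cells that some tissue Treg cells also express, was at 47.5, 43.7 and 24.6 CPM in liver and 18.1, 20.7 and 19.0 CPM in spleen (0.98 ± 0.22, edgeR adjusted p = 0.00426). Pparg, a fatty acid sensor known in fat-tissue Treg cells, was at 11.7, 13.02 and 13.7 against 11.2, 4.63 and 2.99 CPM (1.46 ± 0.35, edgeR adjusted p = 0.00681). For Pparg spleen library 1 lay close to the liver libraries. Its call ended without spleen library 3 (1.07) and with libraries thinned to equal depth. Nr1d1 was at 8.29 ± 1.14 against 4.20 ± 0.860 CPM (1.09 ± 0.32, edgeR adjusted p = 0.0265), a call that ended without liver library 2 (0.99), liver library 3 (1.08), spleen library 2 (1.11) or spleen library 3 (0.98). Nr4a3, induced by T cell receptor signals, was at 11.9, 22.2 and 17.8 CPM in liver and 14.6, 39.7 and 44.0 CPM in spleen, and Ppard, another fatty acid sensor, at 26.3 ± 2.14 and 36.0 ± 10.1 CPM. The log2 fold changes were -1.06 ± 0.26 and -0.54 ± 0.18 (edgeR adjusted p = 0.00840 and 0.0460). In both of these spleen library 1 lay among the liver libraries. The Nr4a3 call ended without spleen library 3 (-0.84) and that of Ppard without liver library 1 (-0.50), liver library 2 (-0.51), spleen library 2 (-0.35) or spleen library 3 (-0.53), and DESeq2 called neither (adjusted p = 0.221 and 0.0687). Of the 5 called genes only Rora kept its call with libraries thinned to equal depth. Per length Nr4a1, an early response gene of T cell receptor signals, was the only 1 of the 18 above Nr1h2 in both tissues, at 173 ± 31.1 CPM per kilobase in liver and 209 ± 23.9 in spleen.

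**Figure D5:**
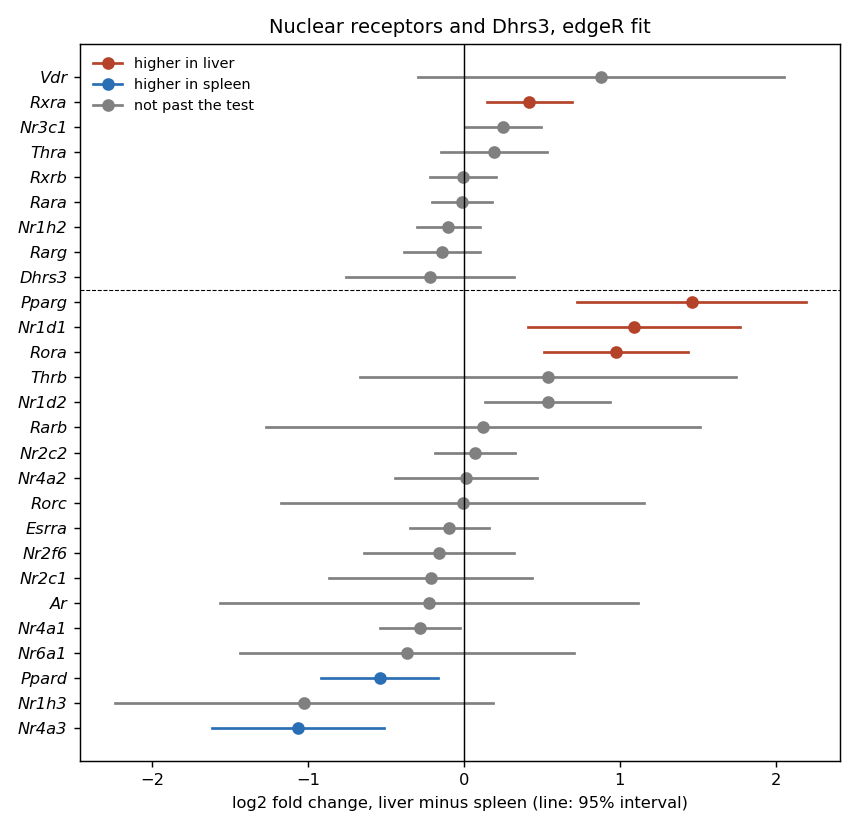
Log2 fold change, liver minus spleen, with its 95% interval for the 9 genes (above the dashed line) and the 18 other tested nuclear receptors (below it); red is higher in liver, blue higher in spleen and grey not past the test. Rxra at 0.42 is the only coloured gene above the line, and the wide interval of Vdr runs from -0.29 to 2.05.

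Coregulators, the proteins through which bound receptors switch transcription on or off, were tested as a further list. Of 19 tested 2 fell in liver relative to spleen, 0 rose and 17 did not pass, with a median of -0.16, where 6.9% of all tested genes fell and 9.28% rose. Carm1, an arginine methyltransferase recruited by coactivators, was at 70.2, 58.1 and 58.1 CPM in liver and 127, 125 and 107 CPM in spleen (-0.93 ± 0.12, edgeR adjusted p = 2.08e-05). Its libraries did not overlap, and the call held in all 14 alternatives. The corepressor gene Ncor1 was at 500 ± 83.9 and 574 ± 37.1 CPM and did not pass (-0.19 ± 0.12, edgeR adjusted p = 0.300).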

How the data were processed

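RNA was measured by sequencing in sorted Treg cells of 3 liver and 3 spleen libraries, numbered in accession order. The authors deposited raw read counts per gene symbol, with no normalization in the table. HISAT2 2.1, HTSeq 0.11 and build mm9 are named, per the submitters' processing notes. The sources used here name no annotation, strandedness of counting or read filter. The 5 summary rows that name no gene held 25.5% to 29.0% of a library's counts and were left out. The analysis used edgeR 4.0.16 under R 4.3.3: filterByExpr, TMM scaling and the quasi-likelihood F test, with Benjamini-Hochberg adjustment over 11716 genes and a threshold of 0.05. CPM are relative to TMM-scaled totals, and SE and 95% intervals come from the F statistic. Reading 0 allows up to 3 counts, or 2.58 CPM in spleen library 1 and 0.256 to 0.361 CPM in the others, for counting error only. The methods were tested on simulated counts.

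The 9 genes and all lists were chosen with earlier results of these data known. The rule names the 9 genes, up to 5 called genes of each biology list by p (or the 2 most abundant where fewer than 2 were called), the 2 most abundant markers of each cell type, and the 3 genes nearest to a called gene. Other genes were named after their values were seen. A called gene is not reported here. List symbols were matched through RefSeq synonyms of GRCm38.p6. Transcript lengths and exon overlaps came from GENCODE M21 (GRCm38), which is not the authors' build, so coordinates are given only for RefSeq windows. Nr3c1 and Thra have no window here. Alternatives were RLE and upper-quartile scaling, DESeq2 1.42.0, limma-voom (limma 3.58.1), no filter, 5 CPM in 3 libraries, marker genes removed, thinning to equal depth, and each library left out.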

Additional observations from a re-analysis of the deposited data

How the results depend on the processing

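The fit as reported called 1087 genes higher in liver and 808 higher in spleen. These counts were 1521 and 1243 with limma-voom, and 627 and 422 at equal depth. With a library left out they ranged from 722 to 1245 and from 486 to 989. The lowest were without spleen library 2 and the highest without spleen library 1. The share of calls higher in liver was 57.4% in the fit as reported and 48.5% with upper-quartile scaling. Among the 9 genes, 0 were called higher in liver with upper-quartile scaling (Rxra 0.37) and at equal depth (Rxra 0.28), and 0 to 1 with a library left out (Rxra 0.30 to 0.49); without liver library 3 the called gene was Nr3c1, whose log2 fold change ranged from 0.20 to 0.35. None of the 9 was called higher in spleen in any of the 14 alternatives. Rara changed sign with limma-voom (0.020), without the filter (0.0012) and in 2 of the fits without a library (-0.049 to 0.031). Rxrb did so without the filter (0.0066) and in 2 such fits (-0.043 to 0.058), and Dhrs3 at equal depth (0.46) and in 1 (-0.34 to 0.072). Hspa8 and Hsp90ab1 did so in 1 (-0.16 to 0.025 and -0.085 to 0.0048). No causes of these changes were tested. The fits at equal depth or without a library rest on less data.

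Other nuclear receptors called higher in liver were 5 with no filter and 1 to 3 with a library left out. Those added with no filter were Nr1d2 and Hnf4a. Hnf4a had 8, 0 and 7 counts in liver and 0 in each spleen library, so it entered that fit through liver alone and its call adds no support. Nr1d2 was also called higher in liver with limma-voom and at equal depth. Nr4a1 was called higher in spleen with limma-voom, without liver library 1 and without spleen library 1. Receptors called higher in spleen were 0 with DESeq2 and at equal depth, and 0 to 3 with a library left out. Retinoid metabolism genes higher in spleen were 3 with DESeq2 and with no filter, 0 with the 5 CPM filter and at equal depth, and 0 to 2. Retinoic acid response genes higher in liver were 2 with limma-voom. Glucocorticoid response genes higher in spleen were 1 to 3 with a library left out. Chaperone and steroid enzyme genes higher in liver were 0 with DESeq2, the 5 CPM filter and equal depth and 0 to 1, and higher in spleen 2 with limma-voom and 0 to 1. LXR targets higher in liver were 0 at equal depth and 0 to 1. Thyroid hormone genes higher in spleen were 1 with upper-quartile scaling and limma-voom. Coregulators higher in spleen were 4 with upper-quartile scaling and limma-voom, 1 at equal depth and 1 to 4. Vdr gave no value under the 5 CPM filter or at equal depth. No paired analysis was possible because the labels pair no libraries. The shallow spleen library 1 limits Vdr and Dhrs3, with 0 and 12 counts there.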
